A study of Mus musculus with 6 samples.

Results

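The miRNAs described here are 8 mature miRNAs known from blood-forming cells and from microglia, the resident macrophages of the brain: mmu-miR-142a-3p, mmu-miR-142a-5p, mmu-miR-223-3p, mmu-miR-223-5p, mmu-miR-150-5p, mmu-miR-155-5p, mmu-miR-146a-5p and mmu-miR-146b-5p, written below without the mouse prefix. They were taken by exact name from the 1915 mature miRNAs listed in every library, and all 8 were found. Small RNA-seq was performed on whole brain of wild-type C57BL/6 mice at stage E15.5, late in gestation. Of the 6 libraries, 3 were female and 3 male, each from RNA pooled over 2 to 3 embryos that had been sexed by their gonads. No treatment is named, and by their labels the groups share wild-type genotype, stage and tissue and differ by sex. The strain is given by the methods and not by the labels. The methods name neither perfusion nor cell sorting, and the RNA is that of every cell in the dissected tissue.

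miRNAs are short RNAs that pair with messenger RNAs through their seed, bases 2 to 8 from the 5′ end, and lower the output of those messages. miR-142 is made throughout the blood lineages, including microglia, whereas miR-223 is best known from neutrophils and other myeloid cells and miR-150 from mature lymphocytes. miR-155 and miR-146a are induced by inflammatory signals through NF-κB, and miR-146 in turn represses the signalling adaptors Traf6 and Irak1. miR-146 and miR-155 are also made outside the blood lineages.

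The mature sequences are shown because the seed decides which messages each miRNA can pair with, and because the miR-146 pair can only be told apart by its last bases. RefSeq (GRCm38.p6) held 7 of the 8 by name, miR-150-5p being the exception, and capitals mark the seed.
miR-142a-5p: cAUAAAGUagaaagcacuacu
miR-142a-3p: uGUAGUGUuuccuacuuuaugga
miR-223-5p: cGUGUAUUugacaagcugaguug
miR-223-3p: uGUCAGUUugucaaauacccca
miR-155-5p: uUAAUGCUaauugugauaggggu
miR-146a-5p: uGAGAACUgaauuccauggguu
miR-146b-5p: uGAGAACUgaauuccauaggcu

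miR-146a-5p and miR-146b-5p shared their seed with each other, and no other listed miRNA with a sequence had it. The other 5 seeds occurred once each among the 1623 listed miRNAs with a sequence. Counted from the 5′ end, miR-146a-5p and miR-146b-5p were identical over their first 17 bases and differed by G18A and U21C, so that only these bases separate their reads. The number of mismatches allowed when reads were assigned is not given in the sources used here, and how reads were split within the pair is therefore unknown. The other 5 members with a sequence came no closer than 8 mismatches to any of the 1623 listed miRNAs with one. The GC content of the 7 sequences lay between 33.3% and 43.5%, in each case below the median of 50.0% over the tested miRNAs with a sequence.

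The 8 miRNAs come from 6 precursors, which lie on 5 chromosomes of mm9, the build used by the authors. The precursor of miR-142a lies on chromosome 11 from 87570366 to 87570429, in an intron of the noncoding transcript A430104N18Rik, and that of miR-146a on the same chromosome from 43187899 to 43187963, outside any annotated gene. The precursor of miR-223 is X-linked, from 93438156 to 93438265, within an exon of the noncoding transcript F630028O10Rik. That of miR-155 lies on chromosome 16 from 84714385 to 84714449, in an exon of its noncoding host transcript. miR-146b is located on chromosome 19 from 46417252 to 46417360, in an intron of Tmem180. The miR-150 precursor lies on chromosome 7 from 52377127 to 52377191, outside any annotated gene. The 7 RefSeq mature sequences each matched mm9 once inside their precursor.

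The libraries held 14802675 to 59362011 reads on miRNAs. Female library 2 was the deepest but had the fewest miRNAs with a read, 660 against 790 to 915 in the other 5, and only 46 of its detected miRNAs had fewer than 100 reads, against 276 to 343. Results that rest on this library are given with and without it. miR-9-5p, a marker of neural progenitors, ranked first in all 6 libraries, and neuronal miR-124-3p ranked between 22 and 31. The 3 skeletal muscle markers (miR-1a-3p, miR-133a-3p and miR-206-3p) summed to 388.0 to 1166 CPM (counts-per-million of the library total) in females and to 5452 to 6099 CPM in males, and all 3 were male-biased, meaning higher in males at an adjusted p below 0.05 in edgeR.

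Together the 8 miRNAs took between 0.0657% and 0.104% of the reads of a library, and 0 of the 8 were sex-biased, where 8.48% of the 1120 miRNAs tested were. Their sum was 1034.3, 656.6 and 832.3 CPM in female libraries 1 to 3 and 1041.8, 784.8 and 921.6 CPM in male libraries 1 to 3. The 2 sets of sums overlapped, with female library 2 the lowest of the 6. In RNA from whole tissue, fewer cells of a type and less miRNA per cell cannot be told apart.

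By mean CPM over the 6 libraries, the order was miR-146b-5p (453.8), miR-146a-5p (240.6), miR-150-5p (86.2), miR-155-5p (57.6), miR-223-3p (24.4), miR-142a-5p (13.3), miR-142a-3p (1.91) and miR-223-5p (0.827). Each of the first 6 lay above the next in all 6 libraries. miR-142a-3p lay above miR-223-5p in 4 of 6, so these neighbours did not differ beyond their spread. The closest step among the rest was that between miR-223-3p and miR-142a-5p, whose ratio went as low as 1.10. Reads of different miRNAs are also weighted by how well each is ligated and copied, so this is an order of reads.

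**Figure D1:**
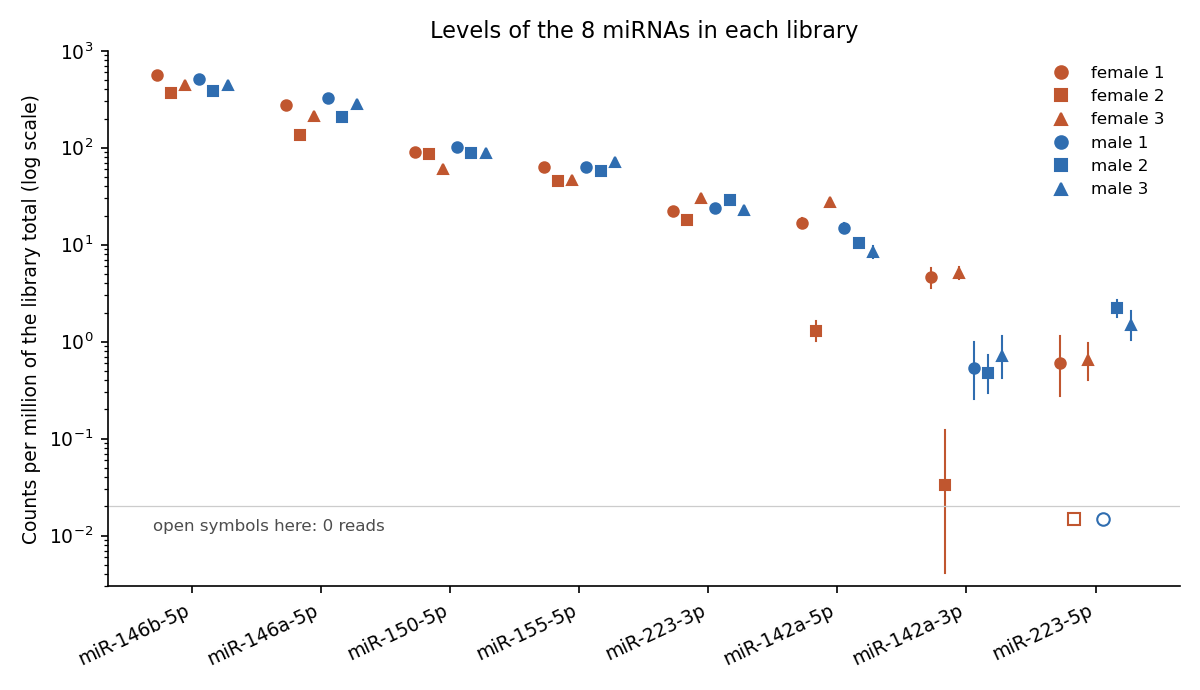
Level of each of the 8 miRNAs in each of the 6 libraries, in counts-per-million of the library total on a log scale; points are single libraries and bars are exact 95% binomial intervals, which cover counting error only. Among the 5 most abundant, miR-146a-5p spans 136.3 to 323.5 CPM and the other 4 vary less, whereas miR-142a-5p and miR-142a-3p are far lower in female library 2 than elsewhere and miR-223-5p has 0 reads in female library 2 and male library 1.

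miR-142a-5p, the more abundant arm of the pan-leukocyte precursor, was the most variable of the members with at least 10 reads in every library. It was found at 16.8, 1.30 and 27.5 CPM in female libraries 1 to 3 (248, 77 and 986 reads) and at 15.0, 10.5 and 8.42 CPM in male libraries 1 to 3 (281, 462 and 199 reads). Female library 3 was the highest and female library 2 the lowest of the 6, so the males lay within the female range. The means were 15.2 ± 13.2 CPM (SD, n = 3) among females against 11.3 ± 3.38 CPM (SD, n = 3) among males. The log2 fold change of male over female was -0.52 (standard error 0.69, 95% interval -1.94 to 0.90, quasi-likelihood test in edgeR, adjusted p = 0.753).

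miR-142a-3p, the other arm, stood at 4.59, 0.0337 and 5.11 CPM in female libraries 1 to 3, from 68, 2 and 183 reads. In male libraries 1 to 3 it stood at 0.535, 0.478 and 0.719 CPM, from 10, 21 and 17 reads. Female libraries 1 and 3 were above all 3 males, and female library 2 was below them. The exact 95% interval of counting in female library 1, 3.57 to 5.82 CPM, lay above the highest male value. In edgeR the log2 fold change was -2.55, with a standard error of 1.80 and a 95% interval from -6.28 to 1.17 (adjusted p = 0.480).

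The values of both arms turned on female library 2. Without it, miR-142a-5p was female-biased, with a log2 fold change of -1.06 (edgeR, adjusted p = 0.0343), against a share of 18.3% of 1110 miRNAs called in that fit. miR-142a-3p had -3.13 with an adjusted p of 0.0656 in the same fit. miR-142a-5p changed sign without female library 3, at 0.25. Among the 119 miRNAs with a mean between 0.5 and 2 times that of miR-142a-5p in the other 5 libraries, the median level in female library 2 was 73.1% of that mean, and 5 were at 0 reads. miR-142a-5p itself was at 8.29%. For the 166 miRNAs near the level of miR-142a-3p, 86 had no read in female library 2. The part of that library's low detection in the miR-142a values was not tested.

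The balance of the arms also varied. miR-142a-5p had more reads than miR-142a-3p in each of the 6 libraries, between 3.65 and 38.5 times as many. miR-142a-3p made up 21.5% of the reads of both arms in female library 1 (95% Wilson interval 17.3 to 26.4), 2.53% in female library 2 (0.697 to 8.77) and 15.7% in female library 3 (13.7 to 17.8). The male shares were 3.44% (1.88 to 6.21), 4.35% (2.86 to 6.56) and 7.87% (4.97 to 12.2) in libraries 1, 2 and 3. The intervals of female libraries 1 and 3 lay above those of all 3 males, and the share in female library 2 was the lowest of the 6. The mean share was 13.2% ± 9.72 (SD, n = 3) among females against 5.22% ± 2.34 (SD, n = 3) among males, and the difference was within the spread between libraries (exact permutation, two-sided p = 0.4, where this design can give no value under 0.1). The difference was -8.02 percentage points, and -13.4 without female library 2 (exact permutation, p = 0.2, the smallest that 2 libraries against 3 can give). This share does not depend on how the libraries are scaled.

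miR-223-3p, the main arm of the X-linked myeloid precursor, was among the most even. It was found at 22.2, 17.9 and 30.4 CPM in female libraries 1 to 3 and at 24.1, 29.1 and 22.6 CPM in male libraries 1 to 3. The lowest and the highest of the 6 were both female. In edgeR its log2 fold change was -0.0018, with a standard error of 0.38 and an adjusted p of 0.998, and the 95% interval from -0.79 to 0.79 leaves room for differences below 0.79 on the log2 scale in either direction.

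miR-223-5p, the minor arm, was at the edge of detection. It had 9, 0 and 23 reads in female libraries 1 to 3, or 0.608, 0 and 0.642 CPM. Male libraries 1, 2 and 3 had 0, 98 and 35 reads, or 0, 2.23 and 1.48 CPM. Both sexes had a library without a read, where the exact 95% binomial interval reached up to 0.0621 CPM in female library 2 and 0.197 CPM in male library 1. In edgeR miR-223-5p had a log2 fold change of 1.57 with a standard error of 2.67, and a 95% interval from -3.94 to 7.08 (adjusted p = 0.822). miR-223-3p made up between 92.9% and 100% of the reads of both arms. Its share was 98.4% ± 1.40 (SD, n = 3) among females against 95.6% ± 3.86 (SD, n = 3) among males, which did not differ beyond the spread (exact permutation, two-sided p = 0.4).

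miR-150-5p, the lymphocyte miRNA, was present at 90.0, 86.2 and 60.7 CPM in female libraries 1 to 3 and at 101.8, 89.2 and 89.2 CPM in male libraries 1 to 3. Female library 3 was the lowest, and 5 of the 6 libraries lay between 86.2 and 101.8 CPM. Unlike the miR-142a arms, it was not low in female library 2, where its level equalled the mean of the other 5. Its log2 fold change was 0.11 (standard error 0.26, 95% interval -0.43 to 0.65, adjusted p = 0.874 in edgeR).

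miR-155-5p, induced in activated macrophages and lymphocytes, was found at 63.3, 45.03 and 46.2 CPM in female libraries 1 to 3 and at 62.9, 58.0 and 70.5 CPM in male libraries 1 to 3. Female libraries 2 and 3 were below all males, whereas female library 1 lay within the male range. The means were 51.5 ± 10.2 CPM (SD, n = 3) among females against 63.8 ± 6.28 CPM (SD, n = 3) among males. In edgeR's test the log2 fold change was 0.19 (standard error 0.29, 95% interval -0.42 to 0.79, adjusted p = 0.798), and it ranged from 0.10 without female library 3 to 0.38 without female library 1.

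miR-146a-5p, a feedback repressor of innate immune signalling, stood at 279.0, 136.3 and 213.4 CPM in female libraries 1 to 3 and at 323.5, 208.5 and 282.6 CPM in male libraries 1 to 3. Female library 2 was the lowest of the 6, and the sexes overlapped. The log2 fold change was 0.25 (standard error 0.23, 95% interval -0.21 to 0.72, adjusted p = 0.549 in edgeR), and it ranged from 0.059 without female library 2 to 0.53 without female library 1.

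miR-146b-5p, encoded by another chromosome but with the same seed, was the most abundant of the 8 and ranked between 123 and 143 among all miRNAs. Its level was 557.8, 369.7 and 448.3 CPM in female libraries 1 to 3 and 514.0, 386.8 and 446.1 CPM in male libraries 1 to 3. The sexes spanned nearly the same range. Male over female, the log2 fold change was -0.16 (standard error 0.20, 95% interval -0.56 to 0.25, adjusted p = 0.731 in edgeR).

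Within the miR-146 pair the sexes did not overlap. miR-146a-5p made up 33.3%, 26.9% and 32.3% of the reads of the pair in female libraries 1 to 3 and 38.6%, 35.0% and 38.8% in male libraries 1 to 3. The mean share was 30.8% ± 3.43 (SD, n = 3) among females against 37.5% ± 2.12 (SD, n = 3) among males, a difference of 6.64 percentage points (exact permutation, two-sided p = 0.1, the smallest this design can give). Such a separation was common: of all 150975 pairs that the 550 miRNAs counted at 10 reads or more in every library can form, the ratio of the 2 counts did not overlap between the sexes in 37.0%. The difference ranged from 4.68 to 7.88 points with each library left out in turn.

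**Figure D2:**
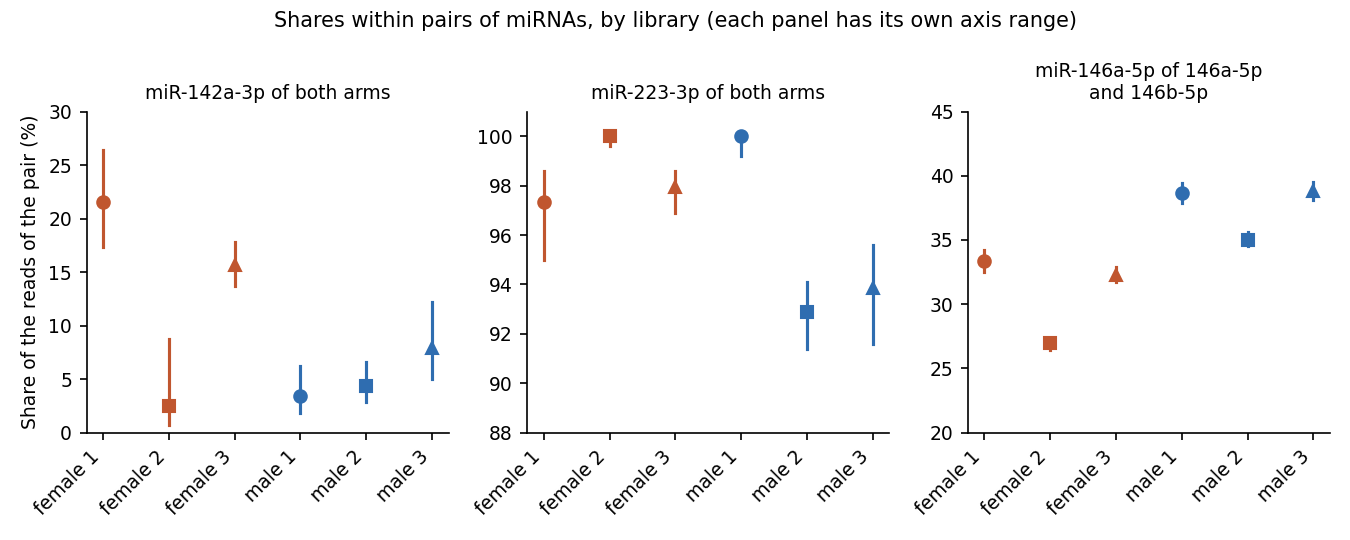
Share of the reads of each pair taken by miR-142a-3p, miR-223-3p and miR-146a-5p in each library, in percent with 95% Wilson intervals, with an axis range of its own in each panel. The miR-142a-3p share is 21.5% and 15.7% in female libraries 1 and 3 and 7.87% or lower in the other 4, and the miR-146a-5p share is at most 33.3% in each female library and at least 35.0% in each male library.

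With all 6 libraries, 0 of the 8 members passed the adjusted p threshold of 0.05 in edgeR, against 3.21% of all miRNAs tested that were higher in males and 5.27% that were higher in females. That is 36 male-biased and 59 female-biased miRNAs, which became 50 and 39 when scaled by library size without TMM. No member had an unadjusted p below 0.05 either, compared with 18.4% of all miRNAs, and DESeq2 with an RUVr factor also called 0 of 8. DESeq2 alone called 0 of 6, since it gave no adjusted p for miR-142a-3p and miR-223-5p. No member separated the sexes without overlap in CPM, where 23.9% of all miRNAs did. Of the 8, 4 had a positive and 4 a negative log2 fold change, where 49.1% of all miRNAs had a positive one, and their median was 0.052, against -0.015 over all miRNAs tested. For the 5 most abundant members, the 95% intervals lay within -0.79 and 0.79 on the log2 scale. The intervals of the miR-142a arms and miR-223-5p reached -1.94 or farther in at least 1 direction.

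**Figure D3:**
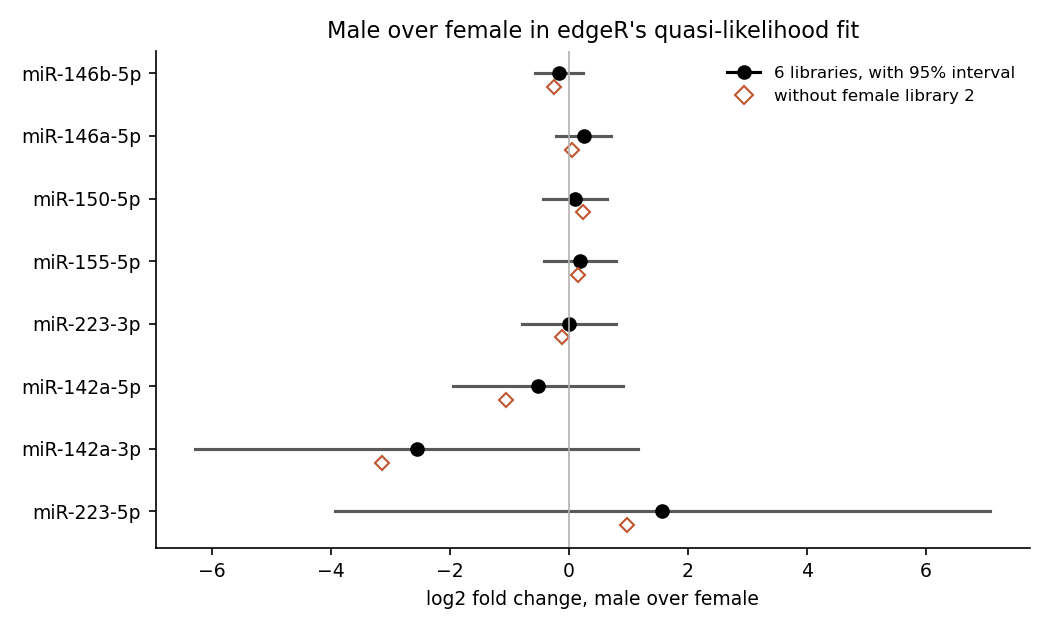
Log2 fold change of male over female for the 8 miRNAs in edgeR; filled points with bars are the estimates from 6 libraries with 95% intervals, and open diamonds are the estimates without female library 2. All 8 intervals include 0, and the miR-142a arms move to -1.06 and -3.13 without that library.

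The SD of log2 CPM over the 6 libraries was 0.28 for miR-223-3p, 0.25 for miR-150-5p, 0.26 for miR-155-5p and 0.23 for miR-146b-5p, each below the lower quartile of 0.31 over the 550 miRNAs that reached 10 reads in every library. miR-146a-5p, at 0.45, lay near the median of 0.48. For miR-142a-5p the SD was 1.52, above the upper quartile of 0.70.

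The other strands of these loci were scarce. miR-155-3p, miR-146a-3p and miR-142b, which is annotated antisense to miR-142a, had 0 reads in all 6 libraries, where a count of 0 allows up to 0.0505 to 0.203 CPM depending on depth. miR-150-3p had 39, 0 and 172 reads in female libraries 1 to 3 and 33, 96 and 5 in male libraries 1 to 3, and miR-146b-3p had between 18 and 259. Neither of these 2 passed the test between the sexes in edgeR, with adjusted p-values of 0.856 and 0.931, and their ranges overlapped.

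Of 7 other miRNAs linked to leukocytes or macrophages, 1 was female-biased, 0 were male-biased and 6 did not pass the test. Among all miRNAs tested, 5.27% were female-biased and 3.21% male-biased. miR-21a-5p, which is induced in myeloid cells but made in many others, was found at 2636, 1728 and 3681 CPM in female libraries 1 to 3 and at 1516, 1380 and 1480 CPM in male libraries 1 to 3. Each female library was above each male library, with a log2 fold change of -0.99 (edgeR, standard error 0.22, adjusted p = 0.00414). miR-511-3p and miR-511-5p, which lie in the macrophage mannose receptor gene Mrc1, stayed at or below 2.07 and 4.92 CPM, with adjusted p-values of 0.975 and 0.969. miR-342-3p, from an intron of Evl, was abundant at 2326 to 3367 CPM and had a log2 fold change of 0.12 (edgeR, adjusted p = 0.811). In CPM its female libraries, at 2326 to 2789, lay below its male libraries, at 2949 to 3367, and 23.9% of all miRNAs separated the sexes in this way or the other. Its other arm, miR-342-5p, had 0.11 (adjusted p = 0.869). miR-147-3p, which is induced in stimulated macrophages, had 19 reads in female library 3 and none elsewhere. For miR-21a-3p the females had 0, 0 and 4 reads and the males 40, 95 and 6 (edgeR, adjusted p = 0.430). In CPM all males were above all females. The exact 95% intervals of female library 3 (0.0304 to 0.286 CPM) and male library 3 (0.0932 to 0.553 CPM) overlapped, however.

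Markers of red blood cells and vessels, the other cells that blood-filled tissue can bring, moved differently. All 5 erythroid miRNAs had reads in every library, and their sum ranged from 1284 to 2705 CPM in females and from 3172 to 3927 CPM in males. Nearly all of it came from miR-486a-5p and miR-486b-5p. Among all miRNAs tested, 3.21% were male-biased. Of the 5 erythroid ones, miR-486a-5p and miR-486b-5p were male-biased in edgeR, with log2 fold changes of 0.80 and 0.81 (adjusted p = 0.0471 and 0.0458). Their counts were nearly equal in every library, for example 10757 and 10716 in female library 1, so they do not count as 2 separate markers. The erythroid sum includes both and so mostly follows miR-486, whereas the other 3 erythroid miRNAs were not called. The part of red cells in the miR-486 levels was not tested. miR-144-3p and miR-144-5p, processed from the same transcript as miR-451a, had log2 fold changes of -0.97 and -0.74 (adjusted p = 0.703 and 0.480). miR-451a, the classical erythroid miRNA, was found at 41.5, 10.7 and 28.9 CPM in female libraries 1 to 3 and at 37.7, 35.7 and 24.4 CPM in male libraries 1 to 3 (adjusted p = 0.869). Like the miR-142a arms, miR-223-3p, miR-155-5p, miR-146a-5p and miR-146b-5p, it was lowest in female library 2. This was common there: 37.0% of the 119 miRNAs near the level of miR-142a-5p and 36.1% of the 122 near that of miR-223-3p were lowest in that library. The ratio of miR-150-5p to miR-451a reads was between 2.10 and 3.65 in 5 libraries and 8.08 in female library 2.

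All 4 vascular miRNAs had reads in every library, with sums of 7714 to 14680 CPM in females and 6031 to 8155 CPM in males. The endothelial arms miR-126a-3p and miR-126a-5p were female-biased, with log2 fold changes of -0.91 and -0.90 (adjusted p = 0.0172 and 0.0156 in edgeR). miR-143-3p and miR-145a-5p did not pass. Among all miRNAs tested, 5.27% were female-biased. Both miR-126a arms, miR-143-3p, both miR-142a arms and miR-223-3p were highest in female library 3. So were erythroid miR-144-5p, miR-150-3p and miR-21a-5p. In contrast, miR-145a-5p, miR-150-5p and miR-146a-5p were highest in male library 1, and the remaining members in other libraries. The share of all miRNAs that were highest in each library was not computed. Liver miR-122-5p was between 4.72 and 16.1 CPM and did not pass. The part of blood, vessels or other tissue in the levels of the 8 miRNAs was not tested.

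**Figure D4:**
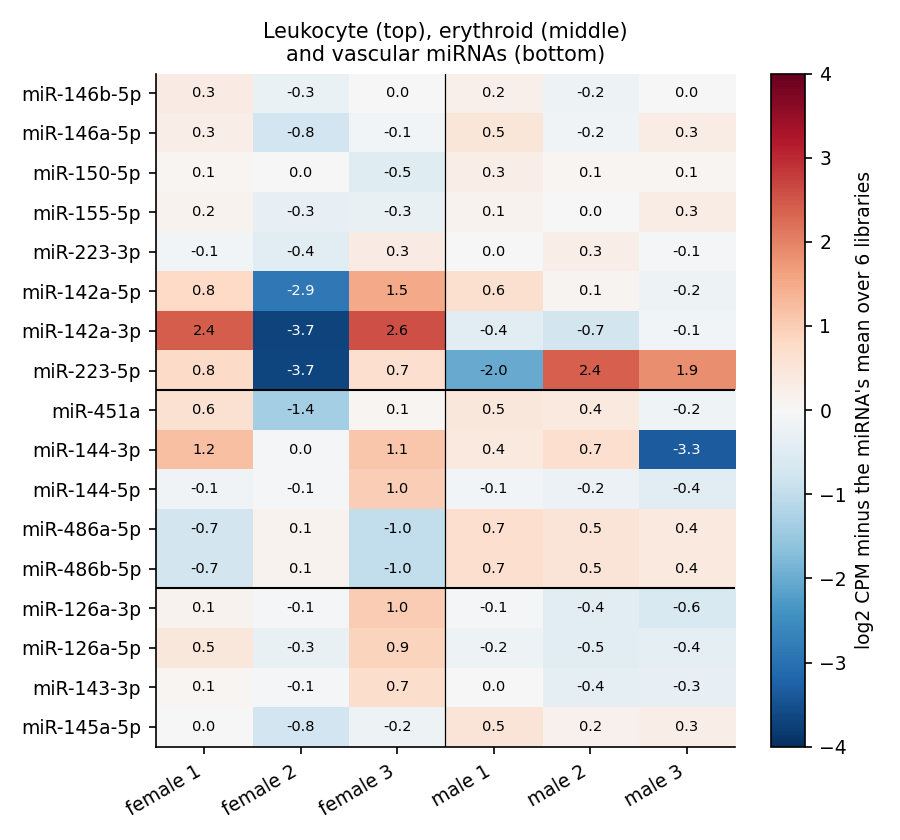
Level of the 8 leukocyte miRNAs, 5 erythroid and 4 vascular miRNAs in each library, as log2 CPM (2 reads added) minus the mean of the same miRNA over the 6 libraries; red is above and blue below that mean. In female library 2, miR-142a-5p and miR-142a-3p stand at -2.87 and -3.70, while miR-150-5p lies at its mean.

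No member was among the 3 miRNAs most like another member across the libraries, which is a narrow cut among 552 candidates. The positions of members ranged from 19 (miR-155-5p for miR-146a-5p) to 503 (miR-142a-5p for miR-150-5p). Likeness was measured as the mean absolute difference of log2 CPM over the 6 libraries after each miRNA's own mean was subtracted, among 552 other miRNAs whose mean count reached 100. The nearest to miR-150-5p were miR-342-3p (0.076), miR-382-5p (0.081) and miR-132-3p (0.095). The nearest to miR-155-5p were miR-375-3p (0.066), miR-466d-3p (0.084) and miR-3093-5p (0.089). miR-223-3p was nearest to miR-363-3p (0.12), let-7i-5p (0.12) and miR-18b-3p (0.15).

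For miR-146a-5p the nearest were miR-324-5p (0.092), miR-17-3p (0.096) and miR-145a-5p (0.12), and miR-146b-5p stood at position 21. For miR-146b-5p they were miR-466b-3p, miR-466c-3p and miR-466e-3p, all at exactly 0.09993, so that these may not be separate matches. miR-142a-5p was nearest to miR-676-5p (0.38), miR-210-3p (0.44) and miR-32-3p (0.50). The best matches of miR-142a-5p were thus looser than those of the other 5 members compared. Its median distance over all candidates was also larger, 1.04 against 0.388 to 0.457, so the distances also reflect how much each miRNA varies. These distances are over 6 libraries that also differ in depth.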

How the data were processed

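The authors trimmed adaptors with cutadapt 1.15, mapped reads with Bowtie 1.2.1 to miRBase v.21 and mm9, and quantified known miRNAs in the miRDeep2 workflow. They deposited raw read counts per mature miRNA, without normalization. No molecular identifiers are named, so intervals cover counting error only. Depth was 14802675 to 59362011 reads per library. The labels give no batch.

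Levels are CPM, set to the library total. Sexes were compared with edgeR 4.0.16 (R 4.3.3) on miRNAs with at least 10 reads in all, with TMM scaling, the quasi-likelihood test, Benjamini-Hochberg adjustment over 1120 miRNAs and 0.05 as the threshold. Each standard error is the size of the log2 fold change over the square root of the F statistic. Shares were compared by exact permutation (scipy 1.17.1). DESeq2 1.42.0, RUVr, other filters, a replicate block and leaving out libraries were alternatives. Positions are from GENCODE vM1 on mm9. The members and lists were chosen with earlier results of these data known. The named miRNAs are the 8 members, the other strands of their loci, 7 other leukocyte miRNAs, the cell type markers and the 3 miRNAs nearest to each member with at least 10 reads in every library. Replicates are pools, so p-values measure the spread between pools.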

Additional observations from a re-analysis of the deposited data

How the results depend on the processing

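The mean level of miR-142a-3p fell from 1.91 to 1.27 CPM without female library 3 and that of miR-223-5p from 0.827 to 0.546 CPM without male library 2. The 3 shares kept their direction with each library left out. No alternative other than leaving out female library 2 called a member: the number of members past the threshold was 0, and between 0 and 1 with each library left out. The number of sex-biased miRNAs rose from 95 to 223 with edgeR and 1 RUVr factor and 251 with DESeq2 and 1 RUVr factor, fell to 59 of 951 with an offset for the GC content of the mature sequence, which was chosen after seeing the data, and ranged from 30 to 203 with each library left out (30 without male library 1, 60 without female library 3, 203 without female library 2). After the mean of each sex was subtracted, same-numbered libraries had correlations of 0.0014, 0.10 and 0.12. Differently numbered ones had -0.17 to 0.11. These are too few to tell whether the replicate numbers in the labels pair the samples. With the replicate block, 92 miRNAs were sex-biased.

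The log2 fold change of miR-223-3p turned positive with library size scaling (0.11), DESeq2 (0.020), no filter (0.064), the replicate block (0.0034) and the GC offset (0.40), and ranged from -0.18 to 0.21 with each library left out. That of miR-142a-5p turned positive with the replicate block (0.13) and the GC offset (0.42) and ranged from -1.06 to 0.25 with libraries left out. That of miR-146b-5p was 0.24 with the GC offset and ranged from -0.24 to 0.027, and that of miR-150-5p ranged from -0.067 to 0.24. With the GC offset, miR-146a-5p had 0.67 (edgeR, adjusted p = 0.0507) and miR-155-5p 0.76 (adjusted p = 0.174). The cause of these changes was not tested. Library size scaling moved the median over all miRNAs from -0.015 to 0.10, and the fits with an RUVr factor moved it to 0.27 and 0.29. miR-142a-3p and miR-223-5p were not tested with at least 10 reads in every library, nor miR-150-5p with the GC offset. The counts of miR-142a-3p and miR-223-5p limit what can be said of them.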
